A study of Mus musculus with 4 samples.

Results

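Histone H3 trimethylated at lysine 9 (H3K9me3) was compared between macrophages of wild-type mice and of mice labelled Sun-/- (Sun knockout), by chromatin immunoprecipitation and sequencing. The members are all H3K9me3 peaks of both genotypes, 19279 in wild-type cells and 17369 in the knockout, or 36648 of the 96551 peaks in the 4 peak lists of the study, whose other lists hold H3K4me3. Both groups were peritoneal macrophages drawn out with thioglycollate broth, cultured in dishes, from C57BL/6 mice aged 8 weeks, and both were precipitated with the same H3K9me3 antibody (abcam, ab8898). The genotypes were labelled WT and Sun-/-. Which of the SUN domain genes was deleted, in which cells, and how many mice went into a library are not given in the sources used here. There was 1 library in each group, so nothing below has a replicate check and no p-value was computed. Intervals are 95% intervals of counting error only.

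H3K9me3 is laid down by the SUV39H, SETDB1 and related methyltransferases and is bound by HP1 proteins. It marks the repeats around centromeres, transposable elements, the large families of KRAB zinc finger genes, the silent allele of imprinted regions and germline genes kept off in body cells. Much of this chromatin lies at the nuclear lamina, next to which SUN proteins span the inner nuclear membrane and link the nucleus to the cytoskeleton. H3K4me3, the second mark of the study, lies at the starts of active or poised genes and was used here only to say where H3K9me3 peaks sit.

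After removal of duplicates the wild-type library held 27727997 tags and the knockout library 28586946. A tag is 1 mapped read, counted once per position. Only 1.69% of the wild-type tags and 1.62% of the knockout tags fell in H3K9me3 peaks, which covered 5.68 and 5.56 Mb. The peaks were short and weak, with a median of 16 tags over 245 bp in wild-type cells and 17 tags over 258 bp in the knockout. No input library was used for calling. The 12 wild-type peaks with the most tags (916 to 5269) all had a knockout counterpart, and 10 of them also lay on an H3K4me3 peak. They include the ribosomal RNA repeat Rn18s-rs5 with 4111 and 4328 tags and the Duxf3 array with 926 and 923 tags, in wild-type cells and the knockout. How far such peaks come from repeated sequence, and not from the antibody, was not tested. The label macrophage was checked on H3K4me3 at gene ends: 10 of 10 macrophage markers carried it in both genotypes, against 1 of 6 T and NK cell markers in both, 2 of 5 B cell markers in both, 0 and 2 of 5 neutrophil markers and 4 and 2 of 6 mesothelial and fibroblast markers, in wild type and knockout.

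Promoters under H3K9me3 are shown first, because the genotypes differed in how often peaks lay at gene starts. Each sequence runs 5′ to 3′ on the gene's strand from 250 bases before to 50 bases after the start, from RefSeq on GRCm38.p6 (mm10), and capitals mark CG dinucleotides, the usual site of DNA methylation. Duxf3, a double homeobox gene of a repeated array, is shown as the CG-poor kind. Dazl and Tex12, germline genes for an RNA-binding protein and a synaptonemal complex protein, and Mest, an imprinted gene, show the CG-rich kind marked in both genotypes. Hoxa10, Hunk (a protein kinase gene) and Dmrt3 (a transcription factor gene) were marked in Sun-/- cells alone. Duxf3 is named by tags; the others were chosen after their values were seen.
Duxf3: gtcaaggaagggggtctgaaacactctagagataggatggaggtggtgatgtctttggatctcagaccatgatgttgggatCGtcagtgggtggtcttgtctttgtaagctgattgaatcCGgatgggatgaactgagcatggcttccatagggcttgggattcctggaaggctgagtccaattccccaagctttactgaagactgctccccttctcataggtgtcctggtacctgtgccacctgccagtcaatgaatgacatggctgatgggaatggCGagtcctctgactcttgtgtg
Dazl: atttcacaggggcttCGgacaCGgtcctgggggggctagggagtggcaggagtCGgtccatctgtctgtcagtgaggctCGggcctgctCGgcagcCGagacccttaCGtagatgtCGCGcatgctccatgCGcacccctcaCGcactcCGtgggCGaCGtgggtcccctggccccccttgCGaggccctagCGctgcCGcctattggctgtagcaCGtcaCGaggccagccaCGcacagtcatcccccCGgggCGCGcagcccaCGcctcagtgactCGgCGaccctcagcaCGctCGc
Tex12: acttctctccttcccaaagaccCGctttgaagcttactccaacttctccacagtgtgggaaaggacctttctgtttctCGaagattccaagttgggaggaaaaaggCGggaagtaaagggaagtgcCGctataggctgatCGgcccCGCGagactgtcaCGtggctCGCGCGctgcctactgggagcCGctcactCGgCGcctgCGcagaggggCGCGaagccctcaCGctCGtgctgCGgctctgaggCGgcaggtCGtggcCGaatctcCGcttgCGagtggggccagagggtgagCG
Mest: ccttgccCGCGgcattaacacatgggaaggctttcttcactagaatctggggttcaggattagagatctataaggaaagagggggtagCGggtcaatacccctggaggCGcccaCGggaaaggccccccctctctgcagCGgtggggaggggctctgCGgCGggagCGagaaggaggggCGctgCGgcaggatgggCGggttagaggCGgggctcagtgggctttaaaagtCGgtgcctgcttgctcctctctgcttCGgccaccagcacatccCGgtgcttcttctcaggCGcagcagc
Hoxa10: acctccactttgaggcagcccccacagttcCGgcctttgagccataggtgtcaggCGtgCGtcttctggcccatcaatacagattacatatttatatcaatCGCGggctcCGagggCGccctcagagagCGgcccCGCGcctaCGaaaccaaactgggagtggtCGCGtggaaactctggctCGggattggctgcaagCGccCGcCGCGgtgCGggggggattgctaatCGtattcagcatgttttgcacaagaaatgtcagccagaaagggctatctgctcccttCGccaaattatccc
Hunk: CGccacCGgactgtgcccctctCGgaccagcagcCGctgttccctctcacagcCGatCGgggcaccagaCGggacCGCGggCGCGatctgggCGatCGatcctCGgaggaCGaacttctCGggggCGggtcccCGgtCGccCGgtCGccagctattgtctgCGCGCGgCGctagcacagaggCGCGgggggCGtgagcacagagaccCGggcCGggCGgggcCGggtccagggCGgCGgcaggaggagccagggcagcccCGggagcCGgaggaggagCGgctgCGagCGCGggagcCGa
Dmrt3: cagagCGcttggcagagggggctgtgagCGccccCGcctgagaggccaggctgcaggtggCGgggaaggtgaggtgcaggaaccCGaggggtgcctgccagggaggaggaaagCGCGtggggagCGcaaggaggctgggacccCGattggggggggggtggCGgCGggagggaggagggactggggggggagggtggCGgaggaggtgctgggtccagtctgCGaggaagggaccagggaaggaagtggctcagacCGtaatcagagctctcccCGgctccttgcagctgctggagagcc

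The Duxf3 window (chr10:58233040-58233339, minus strand) holds 3 CG and lay under a peak of 926 tags in wild-type cells and 923 in the knockout. The Dazl window (chr17:50293571-50293870, minus strand) holds 28 CG and lay under 127 and 121 tags. Tex12 (chr9:50561219-50561518, minus strand, 26 CG) lay under 48 and 96 tags. At these germline promoters both libraries thus had a peak, near equal at Dazl and larger in the knockout at Tex12. Mest (chr6:30737800-30738099, plus strand, 17 CG) lay under 44 and 34 tags. Hoxa10 (chr6:52234890-52235189, minus strand, 21 CG) lay under no wild-type peak and a knockout peak of 53 tags, and the nearest wild-type peak was 17744 bp away. Hunk (chr16:90386147-90386446, plus strand, 41 CG) had a knockout peak of 94 tags, with the nearest wild-type peak 43178 bp away. Dmrt3 (chr19:25610287-25610586, plus strand, 15 CG) had a knockout peak of 89 tags, with the nearest wild-type peak 200087 bp away.

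Over all 27025 genes with a promoter window, a peak overlapped a window in both genotypes for 461 (1.71%), in wild-type cells alone for 513 (1.9%) and in Sun-/- cells alone for 821 (3.04%). Chromosome 18 has no entry in the promoter table and is left out of every promoter value. The marked windows were rich in CG whichever genotype marked them. The median was 34 CG per 300 bp in windows marked in both, 29 in wild-type cells alone and 28 in Sun-/- cells alone, against 6 in unmarked windows. The hexamer TGCCGC, the core of the site bound by the imprinting factor ZFP57, was searched on both strands. It was present in 32.0% of windows marked in both, 28.3% in wild-type cells alone and 27.4% in Sun-/- cells alone, against 11.6% of all 32851 windows. The hexamer holds a CG itself, so its share moves with CG content. A window marked in a single genotype is not always empty in the other: 22.1% of the knockout-alone windows had a wild-type peak within 1 kb, and 28.8% of the wild-type-alone windows had a knockout peak within 1 kb.

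Fewer than 2 in 5 peaks of either list were found again in the other genotype. A knockout peak overlapped 6258 of the 19279 wild-type peaks, 32.5% (31.8 to 33.1%), and a wild-type peak overlapped 6214 of the 17369 knockout peaks, 35.8% (35.1 to 36.5%). Where they met, they met closely: 5672 overlaps were 1 to 1, the summits of overlapping peaks lay a median of 60 bp apart, and knockout peaks were 1.04 times as wide. Another 177 wild-type peaks overlapped 2 or more knockout peaks, and 220 knockout peaks overlapped 2 or more wild-type peaks. The share found again followed the number of tags. Of wild-type peaks with under 15 tags 14.9% were shared, of those with 15 to 24 tags 29.8%, of those with 25 to 49 tags 61.5%, and of those with 50 or more 88.0%. In the knockout the same classes gave 17.9%, 29.7%, 57.3% and 86.2%. Away from H3K4me3 peaks of the same genotype the shared part was smaller, at 19.3% of wild-type and 24.97% of knockout peaks. Among peaks scored 100 or more in both lists it was 48.3% and 46.0%, and the order of the genotypes turned. The score is the caller's p-value on a -log10 scale.

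**Figure D1:**
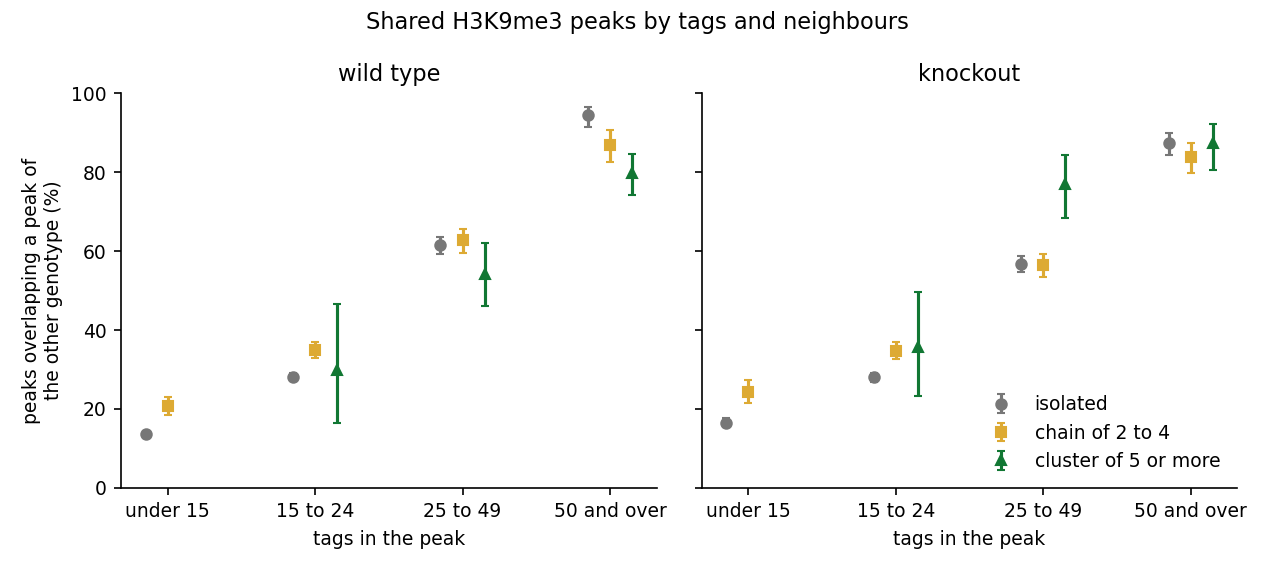
Share of H3K9me3 peaks that overlap a peak of the other genotype (y axis, %) by tags in the peak (x axis), for peaks with no neighbour within 10 kb, in chains of 2 to 4 and in clusters of 5 or more, with exact 95% intervals; classes of under 10 peaks are not drawn. In both panels the share climbs with the tags, from 13.6% of isolated wild-type peaks with under 15 tags to 94.5% of those with 50 or more.

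By genomic place, the knockout peaks lay more often in genes and at their starts. The summit was inside a gene for 50.4% (49.7 to 51.1%) of wild-type and 56.3% (55.6 to 57.0%) of knockout peaks, while genes cover 45.7% of the chromosomes. It was inside a protein-coding gene for 41.8% and 48.3%, and within 1000 bp of a gene end for 16.8% (16.3 to 17.3%) and 22.6% (21.99 to 23.2%). Promoter windows were overlapped by 903 of 18619 wild-type peaks, 4.85% (4.55 to 5.17%), and by 1219 of 16829 knockout peaks, 7.24% (6.86 to 7.65%), while the windows make up 0.345% of the chromosomes. An H3K4me3 peak of the same genotype lay under 22.4% of wild-type and 33.7% of knockout peaks. Taking H3K4me3 peaks of either genotype gave 27.2% and 36.7%. None of these intervals overlap between the genotypes, but they cover counting error in 1 library each and not the spread between mice.

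Shared peaks of the genotypes overlap each other, so their places are nearly the same by definition: the summit was inside a gene for 57.9% of wild-type and 58.0% of knockout peaks. Among peaks without a partner, which are separate sets in the genotypes, it was 46.8% and 55.4%. Such peaks overlapped a promoter window in 3.23% and 6.26% of cases and an H3K4me3 peak in 12.1% and 25.2%. For shared peaks the same values were closer, at 8.21% and 9.003% over promoters and 43.9% and 48.9% on H3K4me3. By class of tags the promoter shares were 3.08% (2.68 to 3.53%) and 3.50% (2.99 to 4.08%) under 15 tags, where the intervals overlap, then 4.16% and 5.80% at 15 to 24, 9.59% and 13.4% at 25 to 49, and 7.53% and 13.1% at 50 or more, for wild type and knockout. The mapped summits placed 9.45% of wild-type and 13.2% of knockout peaks within 1 kb downstream of the nearest transcription start, and 2.42% and 3.43% within 1 kb upstream. Farther than 10 kb upstream lay 34.3% and 31.0%, and farther than 10 kb downstream 38.4% and 35.5%. Along protein-coding genes, cut into 3 equal parts by strand, 50.5% of wild-type and 54.4% of knockout summits fell in the part nearest the start. Zinc finger genes named Zfp had 39.4% of wild-type and 34.9% of knockout summits in the last of the 3 parts, where their zinc finger exon usually lies. For all protein-coding genes that part held 24.6% and 22.5%. In the part nearest the start the Zfp genes had 32.3% and 37.3%. The counts were 91 in the first and 111 in the last part in wild-type cells, and 93 and 87 in the knockout. No interval was computed for this small difference between the genotypes. Zfp993 had 44 wild-type and 39 knockout peaks in its body and Zfp978 38 and 36, so few genes weigh heavily in these shares.

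**Figure D2:**
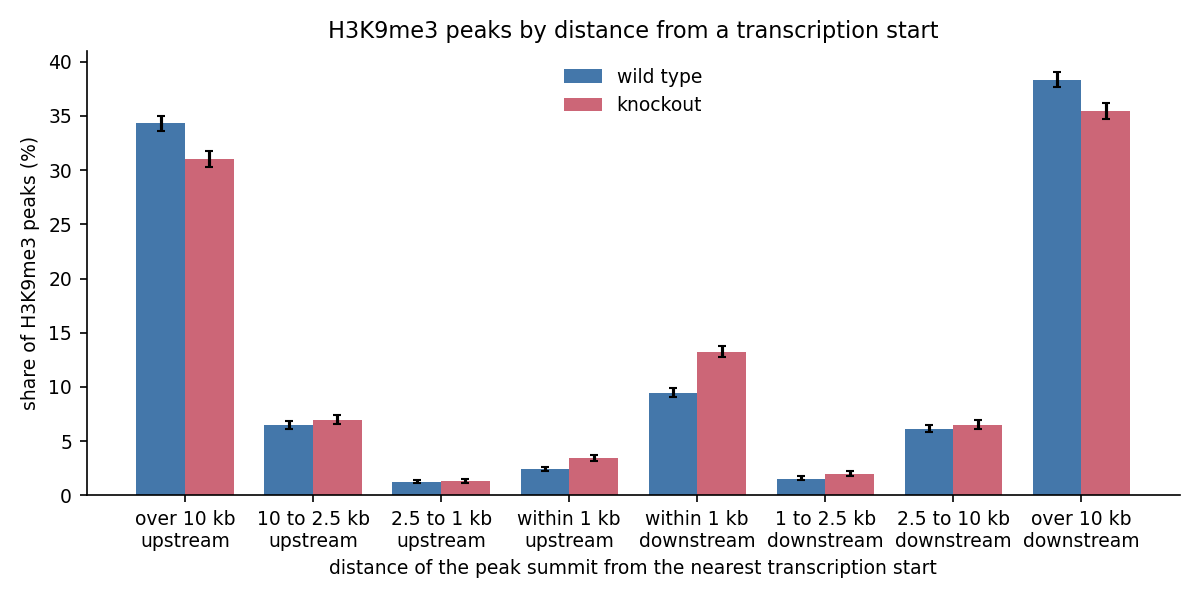
Share of H3K9me3 peaks (y axis, %) by the distance of the summit from the nearest transcription start (x axis), wild type and knockout, with exact 95% intervals. Within 1 kb downstream of a start the knockout bar stands at 13.2% and the wild-type bar at 9.45%, and the order is the other way round beyond 10 kb on either side.

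By chromosome, the knockout list was shorter nearly everywhere, with 0.901 times as many peaks in all. The ratio of knockout to wild-type peaks ran from 0.811 on chromosome 13 (1015 and 823 peaks) to 1.09 on chromosome 19 (392 and 429 peaks), with a median of 0.895 over 19 autosomes. Chromosome 11, with 913 and 986 peaks, was the only other autosome with more peaks in the knockout. Both are gene-dense, with 13.2 protein-coding genes per Mb on chromosome 11 and 11.5 on chromosome 19, but chromosome 7, at 14.0, had 1085 and 996 peaks. Over the 19 autosomes the peak ratio rose with protein-coding genes per Mb, with a Pearson correlation of 0.67 and a Spearman correlation of 0.62. The X chromosome had few peaks in both, 2.55 per Mb in wild-type cells and 2.09 in the knockout, where chromosome 17 had 9.25 and 8.86.

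Neighbouring peaks were as closely spaced in both genotypes. A neighbour lay within 10 kb for 26.0% of wild-type and 26.0% of knockout peaks and within 1 kb for 11.98% and 12.4%. The median gap to the nearer neighbour on either side was 33.3 and 32.4 kb. The mean spacing, chromosome length divided by peaks, was 141 and 157 kb. The nearer gap is shorter than the mean spacing for randomly placed peaks too, so these values alone do not measure bunching. Chains of at least 5 peaks with gaps of at most 10 kb, called clusters here, were fewer in the knockout. The wild type had 59 of them, with 441 peaks (2.29%) and 8.23% of the tags in peaks. The knockout had 47, with 324 peaks (1.87%) and 5.36% of the tags. The largest held 17 peaks in wild-type cells and 18 in the knockout, and 10 wild-type and 5 knockout clusters held 10 or more. Clustered peaks were found again more often than isolated ones, 65.1% (60.4 to 69.5%) against 28.9% in wild-type cells and 72.5% (67.3 to 77.3%) against 32.5% in the knockout. They also held more tags, with medians of 53 and 44, against 16 and 17 for isolated peaks. Among wild-type peaks of 50 tags or more, 79.8% of the clustered and 94.5% of the isolated ones were shared; in the knockout it was 87.3% and 87.5%.

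To compare the same stretches in both libraries, the peaks of both genotypes were joined before chaining. This gave 107 clusters on 18 chromosomes, 29 of them on chromosome 4, and 43 touched no protein-coding gene. They held 623 wild-type peaks with 45352 tags over 369 kb and 556 knockout peaks with 38498 tags over 319 kb. The log2 ratio of their summed tags, knockout over wild type per filtered tag, was -0.28, against -0.05 for all peaks. Of 106 clusters with tags in both, 75 were lower and 31 higher in the knockout, with a median log2 ratio of -0.26. At least 2-fold lower in the knockout were 10 (9.43%), and at least 2-fold higher were 2 (1.89%). Most of this lay in covered length: per kb of called peak the clusters held 123 tags in wild-type cells and 121 in the knockout, the median log2 ratio was -0.10, and 1 cluster was past 2-fold lower and 0 higher. Sums over separately called peaks move with how much was called, so these ratios say less about the level of the mark than about its called extent. Tags per kb of called peak leave out the stretches not called, so they do not give the level over a whole cluster either.

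**Figure D3:**
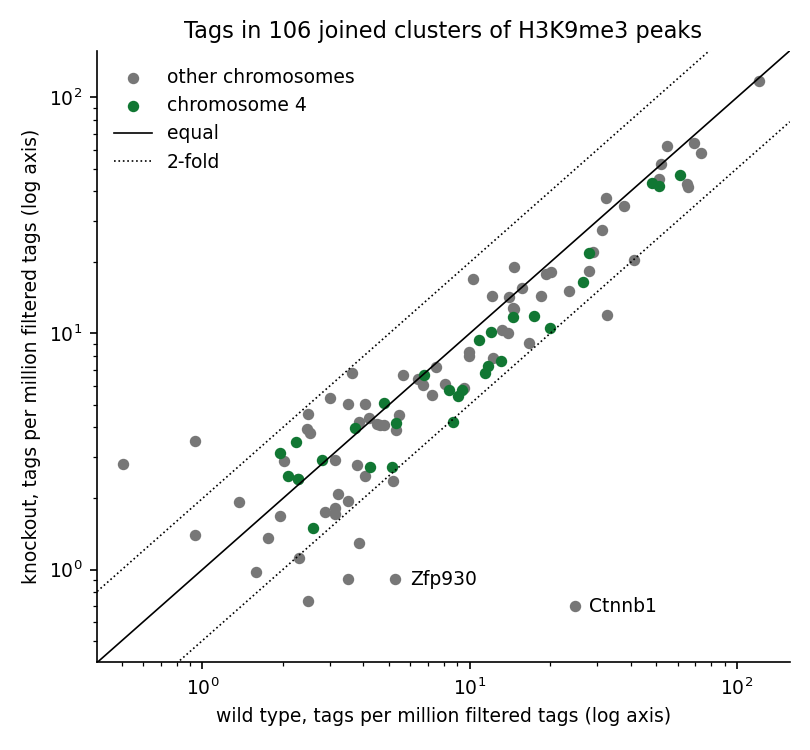
Tags scaled to the filtered tags of the library in each joined cluster, wild type (x axis) against knockout (y axis), both on log axes, 106 clusters with tags in both; lines mark equality and 2-fold. Most points (75) lie below the line of equality, Ctnnb1 and Zfp930 lie far below it, and the chromosome 4 clusters keep near the rest.

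Of the clusters with tags in both libraries, the one farthest from equality lay in Ctnnb1, the gene of beta-catenin, which joins cadherins to the cytoskeleton and carries the Wnt signal. In the wild type 9 peaks of 90, 83, 136, 44, 125, 54, 25, 77 and 51 tags lined up on chromosome 9 between 120950470 and 120959577, in the 3′ part of a gene that runs from 120933400 to 120960507. In the knockout that stretch held 1 peak of 20 tags. The log2 tag ratio was -5.14 (-5.86 to -4.50), and -1.69 per kb of peak. The only cluster with peaks of a single genotype lay in the gene model Gm6351 on chromosome 5, with 5 knockout peaks of 82 tags in all. None of the 9 wild-type peaks lay on an H3K4me3 peak. Both knockout peaks in Ctnnb1 did lie on an H3K4me3 peak: the 1 of 20 tags in the 3′ stretch and a second, of 15 tags, at the start of the gene. Which exons or introns the peaks cover was not analysed here, and the origin of the wild-type signal was not tested.

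Neighbouring clusters were also joined into stretches, in which every peak was counted, those between the clusters too. The stretches with the most tags held zinc finger and nuclear body genes. The first covered 2313 kb of chromosome 4 (145463516 to 147776339) and spanned 22 joined clusters. It holds Zfp978, Zfp993, Zfp600 and other KRAB zinc finger genes. The whole stretch had 241 wild-type and 210 knockout peaks, with 13094 and 10065 tags and a log2 ratio of -0.42 (-0.46 to -0.39). Per kb of peak the ratio was -0.15. Over 655 kb of chromosome 1 (84955328 to 85610644), with Sp110, Sp140 and relatives such as Gm7592 and A530032D15Rik, genes of the Sp100 family of nuclear body proteins, 72 and 62 peaks held 9489 and 6895 tags, a log2 ratio of -0.50 (-0.55 to -0.46). Per kb of peak it was -0.07. A stretch of chromosome 8 from 19697564 to 20538518, which spans 10 clusters, held 71 and 65 peaks with 4078 and 3543 tags (log2 ratio -0.25). Some tag-rich places had nearly equal sums, among them the cluster at Tmem267 with 3364 and 3366 tags. A stretch of the Y chromosome from 90717606 to 90829231 had 3281 and 3282. Its 2 clusters alone held 1051 and 994 tags, and 1437 and 1488. Zinc finger and Sp100 family genes have closely related copies. How reads that fit several places were assigned is not given in the sources used here, so the split between copies is uncertain.

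Smaller clusters went both ways. Zfp930 on chromosome 8 had 5 wild-type peaks with 146 tags and 1 knockout peak with 26 (log2 ratio -2.53, -3.20 to -1.92), but 79.9 and 74.5 tags per kb of peak, a log2 density ratio of -0.14. Sf3b2, a splicing factor gene, and its neighbour Gal3st3 had 5 peaks with 107 tags and 2 with 37 (-1.58). LOC115488130 had 97 and 26 tags (-1.94). Higher in the knockout were an intergenic cluster on chromosome 2 from 122395990 with 26 and 100 tags (1.90, 1.26 to 2.58) and the cluster at Il17ra, the interleukin 17 receptor gene, and Tmem121b with 83 and 152 tags (0.83, 0.43 to 1.23). H2-Q6 and H2-Q7, nonclassical MHC class I genes, shared a cluster of 8 and 5 peaks with 408 and 546 tags (0.38). Per kb of peak the log2 ratios of these clusters were nearer 0, at -0.26 for Sf3b2, -0.19 for LOC115488130, -0.19 on chromosome 2, 0.06 at Il17ra and 0.13 at H2-Q6.

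Where both libraries had a peak, the peaks were alike in tags per kb of called peak. Of the overlapping peaks, 799 met 1 to 1 by at least 50% of each and held 50 tags or more in either library. The median log2 ratio of tags per kb was -0.02 and its standard deviation over pairs 0.26. After centring on the median, 0 pairs (0%) were at least 2-fold denser in the knockout and 1 (0.125%) at least 2-fold less dense. That pair is the first Ctnnb1 peak, with 90 and 20 tags (centred log2 ratio -2.01, -2.79 to -1.30). Among the pairs highest in the knockout was 1 in Copg2, a coat protein gene in the Mest imprinted region, with 57 and 93 tags (0.68, 0.19 to 1.18). Over all 4718 pairs with any number of tags, the median log2 density ratio was -0.01 over promoters, -0.005 on H3K4me3 peaks, -0.05 off them, -0.02 for isolated peaks and -0.15 for the 160 pairs in clusters of both genotypes. Single clustered pairs spread around their median with a standard deviation of 0.20. A pair needs a called peak in both libraries, and tags per kb move little where a peak gains tags and width together. The density of pairs therefore does not give the change in level of the mark. By tags per peak, 30 of the pairs with 50 tags or more were at least 2-fold higher in the knockout and 8 at least 2-fold lower.

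Strong peaks without any partner were few. The wild type had 286 peaks of 100 tags or more, 31 without an overlapping knockout peak, and the knockout had 303, 12 of them without a wild-type partner; they were picked out once their values were known. Among the wild-type ones were a peak of 771 tags within Sfi1, with the next knockout peak 3781 bp away, and one of 544 tags at A530032D15Rik, with the next 590 bp away. The strongest in the knockout lay in Plec, the gene of plectin, a large linker that binds intermediate filaments and, through nesprin-3, the nuclear envelope. It spanned 4916 bp of chromosome 15 (76177553 to 76182468) with 696 tags. No wild-type peak lay within 11835 bp of it, and no H3K4me3 peak overlapped it in either library. The wild type had a single Plec peak of 13 tags elsewhere in the gene. Mroh2a had 2 knockout peaks of 119 and 242 tags and no wild-type peak in the gene. Insm1, a zinc finger gene of neuroendocrine cells, had a knockout peak of 109 tags on an H3K4me3 peak, with the nearest wild-type peak 282325 bp away.

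By gene, 3524 of 21883 protein-coding genes (16.1%) carried a body peak in both genotypes, 1831 (8.37%) in wild-type cells alone and 2299 (10.5%) in Sun-/- cells alone. These shares are the background for the classes below. Away from H3K4me3 peaks of the same genotype the counts were 1570, 1589 and 1313, so there the knockout-alone genes were the fewer. The genes with the most tags were Sfi1, a centrosome gene (4204 and 4500 tags), Tmem267 (3367 and 3302) and Zfp978 (2618 and 2124). Tubgcp2, of the gamma-tubulin complex, led the wild-type-alone genes outside the copied Gm models, with 5 peaks and 114 tags. Slc38a1, a glutamine transporter gene, had 5 peaks with 85 tags, and Zfpm1, the gene of the GATA cofactor FOG1, 2 peaks with 84. In the knockout alone, Adora2a, an adenosine receptor gene, had 4 peaks with 177 tags. Jag2, a Notch ligand gene, had 2 with 116, Onecut3 had 3 with 115, Zfp800 5 with 114 and Pitx1, a hindlimb and pituitary homeobox gene, 3 with 109. H3K4me3 lay at an end of each of these 5 genes in either genotype.

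**Figure D4:**
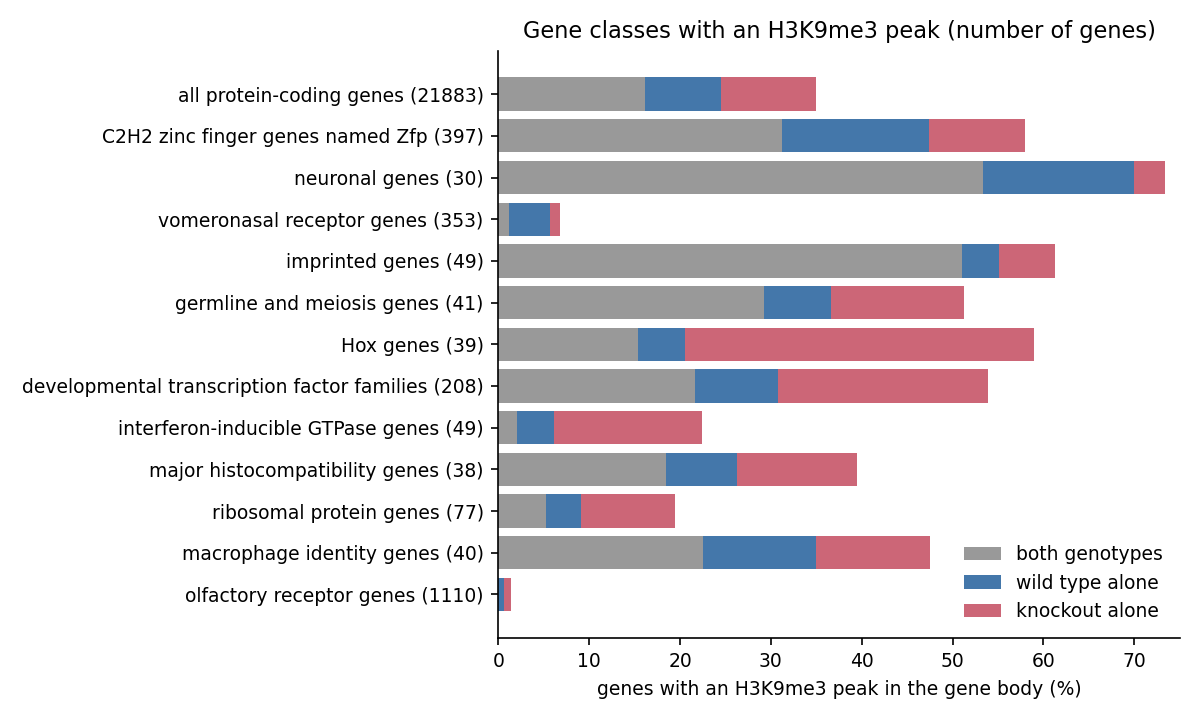
Share of the genes of each class with an H3K9me3 peak in the gene body (x axis, %), split into both genotypes, wild type alone and knockout alone; the number of genes stands beside each name. The knockout-alone part is 38.5% for Hox genes against 10.5% for all protein-coding genes, and the wild-type-alone part is 16.1% for Zfp genes against 8.37%.

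Zinc finger genes, whose KRAB members recruit H3K9me3 to transposable elements, were densely marked in both genotypes. Of 397 genes named Zfp, 124 had a peak in both, 64 in wild-type cells alone and 42 in Sun-/- cells alone. They held 373 and 321 peaks, 28.1 and 24.2 per Mb of gene body against 7.91 and 8.26 for all protein-coding genes. Zfp993 had 44 peaks with 1967 tags in wild-type cells and 39 with 1435 in the knockout, while Zfp600 had 372 and 330 tags and Zfp316 290 and 286. Neuronal genes, most of them very long adhesion and synapse genes, followed the same order, with 16 of 30 marked in both, 5 in wild-type cells alone and 1 in Sun-/- cells alone, and 87 and 65 peaks. Per Mb of gene body that was 3.83 and 2.86 peaks, below the values for all protein-coding genes, so neuronal genes were not densely marked. Ctnna3 had 9 peaks in wild-type cells and 3 in the knockout, and Dlg2 10 and 3, but Lrp1b had 11 and 12. Vomeronasal receptor genes were rarely marked, 4 of 353 in both, 16 in wild-type cells alone and 4 in Sun-/- cells alone.

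Hox genes, which set position along the body axis and are held silent by Polycomb in other tissues, went the other way. Of 39 Hox genes, 6 had a peak in both genotypes, 2 in wild-type cells alone and 15 in Sun-/- cells alone, 38.5% against 10.5% of all protein-coding genes. Over the 4 Hox clusters the wild type had 10 peaks with 248 tags and the knockout 25 with 860. The Hoxa cluster (chromosome 6, 52155367 to 52260880) had 2 peaks with 47 tags and 9 with 357, a log2 ratio of 2.88 (2.44 to 3.35). Hoxb had 37 and 114 tags, Hoxc 19 and 75, and Hoxd 145 and 314 (1.07, 0.78 to 1.36). All 4 clusters thus held more tags in the knockout, over more called length. Per kb of called peak the tags were close, 70.04 and 82.7 at Hoxa and 72.5 and 78.8 over the 4 clusters together. That measure leaves out stretches without a called peak, so it does not give the level over a whole Hox cluster. Hoxa3 had 2 knockout peaks with 103 tags, Hoxa5 1 with 52 and Hoxa11 1 with 51, and none had a wild-type peak. Hoxd11 had 43 tags in wild-type cells and 134 in the knockout. Of these peaks 10 of 10 in wild-type cells and 21 of 25 in the knockout lay on an H3K4me3 peak of the same genotype. The H3K4me3 tags over the 4 clusters, not scaled for depth, were 7810 in wild-type cells and 6474 in the knockout. All H3K4me3 peaks together also held fewer tags in the knockout, 3754622 against 5286707. That library had 26748289 filtered tags against 29681491, so the lower H3K4me3 sum is not particular to the Hox clusters. Counting peaks scored 100 or more left 1 wild-type and 5 knockout Hox genes marked, and counting peaks of at least 25 tags left 2 and 14.

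**Figure D5:**
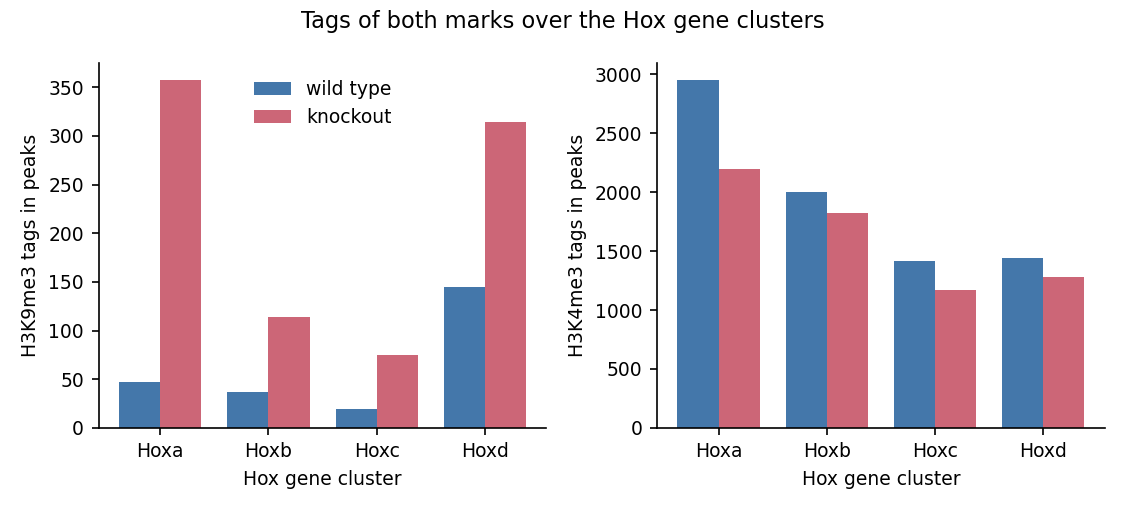
Tags in H3K9me3 peaks (left y axis) and in H3K4me3 peaks (right y axis) over each Hox cluster, wild type and knockout, 1 library each, not scaled for depth. At Hoxa the H3K9me3 bars stand at 47 and 357 tags and the H3K4me3 bars at 2950 and 2198. The H3K4me3 peaks of the whole knockout library also held fewer tags than those of the wild type.

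A wider list of 208 genes of developmental transcription factor families, drawn up after the Hox values were seen, had 45 genes marked in both, 19 in wild-type cells alone and 48 in Sun-/- cells alone. Its genes held 92 wild-type peaks with 2404 tags and 143 knockout peaks with 5246. H3K4me3 lay under 56 of the 92 and 113 of the 143. Lhx2, a forebrain homeobox gene, had 68 and 144 tags, Foxd3, a neural crest factor gene, 58 and 149, and Barhl1 28 and 133. Sox5 had 106 and 101 tags, so not every member was higher in the knockout.

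Imprinted and germline genes were more often marked in both genotypes than in either alone, which also held for all protein-coding genes. Of 49 imprinted genes 25 (51.0%) had a peak in both, 2 (4.08%) in wild-type cells alone and 3 (6.12%) in Sun-/- cells alone. Over all protein-coding genes the shares were 16.1%, 8.37% and 10.5%. Cdkn1c, a growth-restraining cell cycle inhibitor gene, had 183 tags in wild-type cells and 120 in the knockout, Airn, the noncoding RNA of the Igf2r region, 129 and 107, and Gnas 80 and 105. Of 41 germline and meiosis genes 12 (29.3%) were marked in both, 3 (7.32%) in wild-type cells alone and 6 (14.6%) in Sun-/- cells alone. Prdm9, which places meiotic recombination, had 75 and 97 tags, Ddx4 40 and 86, and Sycp2 39 and 58.

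Immune gene classes varied. Of 49 interferon-inducible GTPase and related genes, 1 was marked in both, 2 in wild-type cells alone and 8 in Sun-/- cells alone, each of these 8 with at most 23 tags. Gbp8 had 65 and 45 tags. Of 38 major histocompatibility genes 7, 3 and 5 were marked in both, the wild type alone and the knockout alone, with 247 and 539 tags in all. H2-Q7 had 70 and 155 tags and H2-Q6 44 and 97. Of 36 genes for inflammatory cytokines or targets of NF-kB 4, 1 and 3 were marked, among them Nfkbia, the inhibitor of NF-kB, with 18 and 33 tags. Il18 was counted too, but its body spans Tex12. Its 48 and 96 tags are those of the peak over the Tex12 promoter shown above. Of 40 macrophage identity genes 9, 5 and 5 were marked; Fcgr3, an Fc receptor gene, held 531 and 703 tags in 1 peak each, and Runx1 135 and 124.

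Genes of the nuclear envelope and of H3K9 methylation held 7.03 and 7.36 peaks per Mb in wild-type cells and 8.31 and 8.34 without Sun, near the 7.91 and 8.26 of all protein-coding genes. Of 28 SUN domain and nuclear envelope genes 6 were marked in both, 2 in wild-type cells alone and 3 in Sun-/- cells alone. Sun5 had 65 and 67 tags and Sun1 a single knockout peak of 12 tags, while Sun2, Sun3 and Spag4 had none, so these peaks do not tell which gene was removed. Syne1, the gene of nesprin-1, had 63 and 37 tags. Of 33 H3K9 methylation genes 9 were marked in both, 6 in wild-type cells alone and 2 in Sun-/- cells alone. Ehmt2, the gene of the methyltransferase G9a, had 47 tags in wild-type cells and no knockout peak, Tasor, of the HUSH complex, had 31 and 62, and Suv39h2 22 and 26. Of 30 beta-catenin pathway genes 12, 4 and 5 were marked; the Wnt co-receptor gene Lrp6 had 16 and 100 tags and Tcf7l2 17 and 98, against 685 and 35 for Ctnnb1. At the low end, 0 of 58 replication-dependent histone genes had a peak in either genotype, and of 1110 olfactory receptor genes 7 were marked in wild-type cells alone, 8 in Sun-/- cells alone and 0 in both. Of 77 ribosomal protein genes 4, 3 and 8 were marked, and 7 of 7 wild-type and 11 of 12 knockout peaks in them lay on H3K4me3. These genes are short, and per Mb of gene body they held 25.1 and 43.0 peaks, above the values for all protein-coding genes.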

How the data were processed

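Each deposited file was a peak list that the authors made from 1 library with MACS 1.4.2 and no control, keeping 1 tag per position, at an effective genome size of 1.87e+09 and a p-value limit of 1e-05, per the file headers. CASAVA 1.4, Bowtie 0.12.8 and DiffBind are named with mm10, per the submitters' processing notes; their roles are not given in the sources used here. The fragment size was estimated at 66 bp (wild type) and 71 bp (knockout) with 50 bp tags, per the file headers, which bears on where short H3K9me3 peaks are called. Deposited values were tag counts per peak, the score, the fold enrichment (a ratio, not used) and width and summit in bp (other).

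Overlaps (at least 1 bp), chains, pairs and gene counts were computed with Python 3.11.15, numpy 2.4.6, pandas 2.3.3 and scipy 1.17.1, tested on simulated lists, and drawn with matplotlib 3.10.9. Shares have exact Clopper-Pearson intervals, and tag ratios, scaled to filtered tags, exact conditional binomial ones. Genes and promoters came from RefSeq tables of GRCm38.p6. With 1 library per group no test was run. The members, gene lists and rules were chosen with earlier results of these data known. Genes named are the 10 with the most tags per status, the largest and most shifted clusters and pairs, and the 4 members of each list with the most tags; any other gene named was picked once its values were known. Alternatives are given at the end.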

Additional observations from a re-analysis of the deposited data

How the results depend on the processing

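Of 105 alternative values over 26 results, 34 stayed within the main value's interval or spread or 1.5 times its count, and 71 moved. Signs and orders also turned: the median log2 density ratio of pairs, -0.02, became 0.03 scaled to library totals and 0.01 by tags per peak, so its sign is not fixed. Clusters past 2-fold went from more lower to more higher with gaps of 25 kb, and genes marked in a single genotype from more knockout to more wild-type ones away from H3K4me3. No paired analysis was possible because each group had 1 library. Values are given as wild type, then knockout. The knockout share stayed above the wild-type share in all 4 settings inside genes, 3 at gene ends, 3 at promoters and 2 on H3K4me3, and below it in all 8 for clusters. The alternatives on promoters, H3K4me3 and Hox genes were chosen after seeing the data.

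Shared peaks were 28.8% and 30.5% with an overlap of 50% of the peak, 48.3% and 46.0% with a score of at least 100 and 34.4% and 34.3% with equal numbers of peaks, where the order of the genotypes turned, and 19.3% and 24.97% away from H3K4me3 peaks. Peaks in clusters were 0.669% and 0.512% with gaps of 5 kb, 6.03% and 5.64% with 25 kb, 7.82% and 7.40% from 3 peaks, 0.659% and 0.392% from 10 peaks, 0.638% and 0.340% with a score of at least 100, 1.55% and 1.10% after merging within 1000 bp, and 1.57% and 1.24% without chromosome 4. Clustered peaks shared were 72.1% (wild type) with gaps of 5 kb, 53.7% and 59.4% with 25 kb, 59.9% (wild type) with 50% overlap, and 44.4% (wild type) with a score of at least 100, where 46.4% of isolated wild-type peaks were shared and the order turned. Isolated knockout peaks with that score were shared at 44.2%, and isolated peaks with 50% overlap at 25.6% and 27.8%.

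Peaks inside genes were 57.3% (knockout) by any overlap, 41.8% and 48.3% in protein-coding genes and 59.7% and 63.6% with a score of at least 100. At gene ends they were 11.8% and 15.5% within 500 bp and 24.9% and 31.3% within 2500 bp. Peaks at promoters were 10.3% and 13.9% with a score of at least 100, and on H3K4me3 of either genotype 27.2% and 36.7%.

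Pairs at least 2-fold denser in the knockout numbered 1 scaled to library totals, 30 by tags per peak and 1 from 20 tags. Less dense were 8 by tags per peak, 0 with 80% reciprocal overlap and 0 from 100 tags. Genes marked in both, the wild type alone and the knockout alone numbered 766, 625 and 872 with a score of at least 100, 1109, 676 and 1290 with peaks of at least 25 tags, and, away from H3K4me3, 1570 in both, 1589 in wild-type and 1313 in Sun-/- cells alone. Hox genes with a peak were 1 and 5 with a score of at least 100, and 2 in the wild type with at least 25 tags. Clusters past 2-fold higher and lower in the knockout numbered 1 and 2 with gaps of 5 kb (32 clusters), 70 and 58 with 25 kb (425), 155 and 172 from 3 merged peaks (853), 0 and 1 from 10 (17), and 0 and 1 by tags per kb. The median log2 tag ratio of the clusters stayed below 0 in all of these, from -0.34 to -0.09. Depth limits every absence: most peaks held under 25 tags, and a peak missing from a list is not shown to be absent from the cells.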

Other observations

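Long noncoding RNA genes and pseudogenes did not share the knockout surplus of the protein-coding genes. Of 12727 lncRNA genes 590 had an H3K9me3 peak in both genotypes, 722 in wild-type cells alone and 675 in Sun-/- cells alone, and of 9944 pseudogenes 153, 191 and 193. Pseudogene bodies held 17.5 peaks per Mb in wild-type and 16.4 in Sun-/- cells, more than the 7.91 and 8.26 of protein-coding genes. Peaks overlapped 19 of 1005 microRNA hairpins: 3 in both genotypes, 5 in wild-type cells alone, among them Mir34b and Mir7090, which lies in Ctnnb1, and 11 in Sun-/- cells alone, among them Mirlet7e.

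Genes within the chromosome 1 locus differed in direction. Sp140 had 1664 tags in wild-type cells and 1820 without Sun, and Sp110, which overlaps it, 1523 and 1787, while Gm38510 had 2366 and 1623, Gm7592 1877 and 1289 and A530032D15Rik 1437 and 647. Clustered protocadherin genes share their bodies, and 17 of 57 were marked in both, 13 in wild-type cells alone and 4 in Sun-/- cells alone. These counts repeat the same peaks, as all the genes held 15 wild-type and 14 knockout peaks, with 488 and 553 tags. The cluster at Trim34a and Trim5, genes of antiviral TRIM proteins, had 1 wild-type peak with 14 tags and 5 knockout peaks with 80, a log2 ratio of 2.47 (1.64 to 3.41), under the 100 tags set for the clusters named above. The cluster at Cdkn1a, the gene of the cell cycle inhibitor p21, had 463 and 260 tags (-0.88).

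The remaining gene lists are given as genes marked in both genotypes, wild type alone and knockout alone. Gene models named Gm or with a RIKEN clone name gave 156, 128 and 107 of 1753. Cytochrome P450 genes, which oxidise drugs and steroids, gave 9, 5 and 6 of 97, and UDP glucuronosyltransferase and sulfotransferase genes 9, 3 and 2 of 43. The latter held 9 wild-type and 8 knockout peaks in all. Ugt1a genes share their bodies, so the same peaks count for several: Ugt1a8, Ugt1a9 and Ugt1a10 each had 6 peaks per genotype, with 343 and 264 tags. Keratin genes gave 2, 6 and 4 of 109, serpin genes 2, 2 and 2 of 63, C-type lectin and natural killer receptor genes 6, 2 and 4 of 62, and housekeeping genes 4, 0 and 2 of 20. Schlafen genes gave 0, 1 and 3 of 8. Defensin genes (1, 0 and 0 of 71), major urinary protein and lipocalin genes (1, 0 and 0 of 33) and ampliconic testis and X-linked genes (0, 0 and 1 of 81) were almost free of peaks in both lists.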
